A study of Drosophila melanogaster with 3 samples.

Results

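The genes described here encode the Mediator complex and the general transcription factors of Drosophila melanogaster. They were chosen by name from the Ensembl annotation of the fly genome: protein-coding genes whose symbol starts with MED or Taf followed by a digit, or with TfII, and in addition Tbp and Ssl1. The rule found 51 of 13968 protein-coding genes. They comprise 25 Mediator subunit genes, 15 genes for subunits of TFIID, 10 genes for other factors and Taf12L. Taf12L carries the older name rye and is 1 of 5 testis copies of TFIID subunits, with can, mia, nht and sa, which served as the contrast.

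Mediator is a large complex of head, middle and tail modules, joined by the MED14 backbone, that carries signals from DNA-bound activators to RNA polymerase II. TFIID, built from the TATA-binding protein Tbp and Tbp-associated factors (Tafs), recognises core promoters. TFIIA, TFIIB, TFIIE, TFIIF and TFIIH then help to load the polymerase and open the DNA. These complexes are used in nearly all cells, whereas the testis copies are known from spermatocytes, where they act in a germline programme of gene expression.

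The assay was chromatin immunoprecipitation followed by sequencing (ChIP-seq) of the protein CG4617, tagged at its C terminus with GFP and carried as a stable transgene, with an antibody against GFP. Embryos of both sexes, pooled and 0 to 24 hours old, were taken whole as 3 biological replicates of 1 group (CG4617-eGFP), and the DNA was sonicated to 200 to 800 bp. No control sample was analysed here, and whole embryos mix many cell types and stages. The files list regions with a signal and a summit: a thresholded list of 5558 regions from all replicates, a pooled list of 20051 regions and replicate lists of 30000, 17251 and 14368 regions, the last 4 with background regions included. Signals are the authors' own values on a scale that is not stated, depth in reads is unknown, and a rank of 1 is the highest signal in a list.

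Nearly all Mediator and general factor genes had a CG4617-GFP peak at their promoter. A summit of the thresholded list lay within 500 bp of a transcription start site (TSS) of 46 of the 51 genes (90.2%), against 37.1% of all protein-coding genes. Mediator had 23 of 25 (92.0%), TFIID 14 of 15 (93.3%) and the other factors 9 of 10 (90.0%). The genes without one were MED8 and MED22 of the Mediator head, Taf9, a histone-fold subunit that TFIID shares with the SAGA coactivator, TfIIA-S-2, named as a second gene for the small TFIIA subunit, and Taf12L. None of the 5 testis copies had one. No start of another gene on the opposite strand lay within 1000 bp upstream of any of these copies. Over all genes without such a neighbour the share was 20.5%. In the pooled list, which reaches lower signals, 49 of the 51 genes had a summit, all but Taf12L and TfIIA-S-2, against 52.6% of all genes. The thresholded list is 1 list from all 3 replicates, so its shares carry no replicate error, which the replicate lists give.

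Each replicate was then kept to its 5558 strongest regions, as many as the thresholded list holds. Replicate 1 had a promoter summit at 46 of the 51 genes, against 37.7% of all genes. Replicate 2 had 42, against 36.4%. Replicate 3 had 40, against 33.7%. The mean was 42.7 ± 3.06 genes (SD, n = 3), or 83.7% ± 5.99, while over all genes it was 35.9% ± 2.04. In each replicate, then, the members' share was above that of all genes by more than the spread between replicates. The testis copies had 0 in each. In all, 35 of the 51 genes (68.6%) were in the strongest regions of all 3 replicates, against 28.4% of all genes. Another 10 (19.6%) were in those of 2 replicates, against 8.51%, and 3 (5.88%) in those of 1, close to the 5.59% of all genes. The last 3 were MED8, MED11 and MED22, and the genes found in none were Taf9, Taf12L and TfIIA-S-2. In the whole replicate lists 49, 49 and 46 of the 51 genes had a summit, against 59.2%, 50.2% and 44.6% of all genes, and the 3 that replicate 3 lacked beyond the other replicates were MED11, MED14 and MED18.

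**Figure D1:**
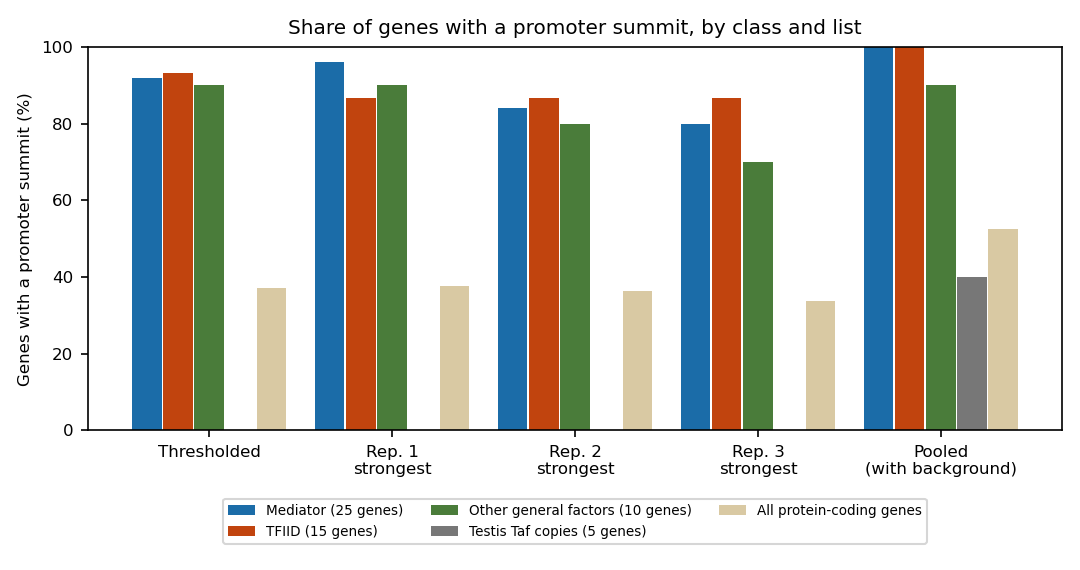
Share of genes (%) with a summit within 500 bp of an own TSS, by class and by list, where the strongest regions of a replicate are its 5558 highest signals. Mediator, TFIID and the other factors stand between 70.0% and 100% in each list, all protein-coding genes between 33.7% and 52.6%, and the testis copies have no bar outside the pooled list.

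The mean of this share over the replicates was the same in Mediator and TFIID. In replicates 1, 2 and 3 Mediator had 24, 21 and 20 of 25 genes (86.7% ± 8.33, SD, n = 3), and TFIID had 13 of 15 in each (86.7% ± 0). The difference, Mediator minus TFIID, was 9.33, -2.67 and -6.67 percentage points, with a mean of 0 ± 8.33. Its sign varied between replicates, and a two-sided exact sign-flip permutation test over the 3 replicates gave p = 1.00. The smallest p that this number allows is 0.25, so the test could not have shown a difference of any size. The other factors had 9, 8 and 7 of 10 genes (80% ± 10). Within Mediator the thresholded peaks covered 8 of 10 head genes, 9 of 9 middle genes, 5 of 5 tail genes and MED14. In the strongest regions of replicates 1, 2 and 3 the middle module had 9, 9 and 9 of its genes, the tail 5, 4 and 5 of 5 and the head 9, 7 and 6 of 10, so that most of the Mediator genes missing from a replicate were head genes.

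The letters under the peaks are shown for 7 genes, chosen because each holds a motif near its summit: Mediator genes with strong and weak peaks, the TFIID genes with the highest signals, and Ssl1 of TFIIH. Other members, such as MED1, MED16, TfIIEalpha and TfIIS, had none of these motifs within 100 bp of the summit. The windows are read 5′ to 3′ along the strand of the gene in the Release 6 genome (dm6) as held by RefSeq, counted from 1. They start as 201 bases centred on the summit and are shortened where a longer stretch would hold more than 30 bases of annotated UTR. Capitals mark core promoter motifs of housekeeping genes, on either strand: the DRE, TATCGATA, bound by the factor Dref, with its core CGATA; Motif 1, searched as GGTCACAC, which reads GTGTGACC on the other strand; and Motif 6, searched as GTATNTTT, which appears in reverse complement in Taf12 and Taf1. In each window only the motifs named here for its gene are in capitals. Other matches stay in lower case, such as a further CGATA, read on the other strand, in MED28. MED10 (chr3L:16232009-16232113, plus strand) holds Motif 1. The match lay further upstream than the start of PDCD-5, which is on the opposite strand 46 bp upstream of MED10. MED11 (chr3L:18745754-18745885, plus strand) and MED20 (chr2L:8072819-8072924, minus strand) hold Motif 6 and Motif 1. MED28 (chr3R:25476886-25477032, plus strand) holds 2 DREs, Taf12 (chr3R:11679661-11679772, minus strand) 2 Motif 6 matches and Taf1 (chr3R:6646950-6646979, plus strand) 1. Ssl1 (chr3L:22878892-22878921, plus strand) has CGATA next to its summit, which lay inside the 5′ UTR of the neighbouring gene Chro. CGATA was within 100 bp of 42.2% of the members' distinct summits, against 43.0% of all strongest promoter summits.
MED10: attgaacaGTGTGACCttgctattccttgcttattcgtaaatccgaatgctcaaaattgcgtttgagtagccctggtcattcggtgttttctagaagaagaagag
MED11: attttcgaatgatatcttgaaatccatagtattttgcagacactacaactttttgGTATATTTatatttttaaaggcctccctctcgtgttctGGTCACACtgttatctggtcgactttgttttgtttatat
MED20: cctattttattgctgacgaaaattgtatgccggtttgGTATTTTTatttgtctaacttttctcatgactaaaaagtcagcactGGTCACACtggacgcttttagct
MED28: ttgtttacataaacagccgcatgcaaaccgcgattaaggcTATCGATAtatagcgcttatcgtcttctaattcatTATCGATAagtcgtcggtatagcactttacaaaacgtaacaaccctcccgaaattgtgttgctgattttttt
Taf12: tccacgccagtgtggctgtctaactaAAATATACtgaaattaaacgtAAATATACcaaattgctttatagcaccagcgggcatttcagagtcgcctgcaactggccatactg
Taf1: AAATATACtttagccgcgtaaacattgcaa
Ssl1: CGATAgctttaaactaactgcagtccagta

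In MED11, whose product belongs to the Mediator head, the summit lay at base 101 of the printed window, 2 bp upstream of the start, and Motif 1 began at base 94. In MED20, another head gene, the summit at base 46 was the first base after the Motif 6 match that began at base 38. In Taf12 the summit at base 43 lay between the Motif 6 matches that began at bases 27 and 48, with the start at base 83. In MED28 the summit at base 98 followed DREs that began at bases 41 and 76. Such matches are descriptions of letters and are not binding sites.

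Over whole promoters, from 250 bp upstream to 50 bp downstream of the most upstream TSS, the letters were counted by class, with no test between classes. Motif 1 was in 9 of 25 Mediator promoters, 3 of 15 TFIID promoters and 0 of 10 of the other factors. Over the 51 genes this made 12 (23.5%), against 17.3% of all genes with a promoter peak and 7.69% of all genes. The DRE was in 7 Mediator promoters (MED7, MED8, MED9, MED17, MED18, MED25 and MED28) and in those of Taf3 and Tbp, and in 0 of the other factors. That is 17.6% of the 51 genes, against 18.4% of genes with a peak and 9.36% of all. Motif 6 was in 7 Mediator, 7 TFIID and 3 other factor promoters, 33.3% of the 51 genes, against 21.6% and 14.9%. Among the 46 members with a peak, Motif 1 was in 21.7%, the DRE in 17.4% and Motif 6 in 37.0%. Within 100 bp of the summit, Motif 6 was found at 11 of the 45 distinct summits (24.4%), against 10.7% of all strongest promoter summits, while the DRE and Motif 1 were each at 5 of 45 (11.1%), against 10.1% and 11.4%.

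Other core promoter letters were counted in the same way. The initiator core, searched as TCAGT, was in 14 of the 51 promoters (27.5%), against 42.6% of genes with a peak and 51.5% of all, and at 5 of 45 summits (11.1%), against 29.3%. The E-box CAGCTG was in 13.7% of the promoters, against 22.9% and 17.6%. GAGAG, the repeat bound by GAGA factor, was in 17.6%, against 22.5% and 29.7%. TATAAA, the letters of the TATA box, was in 47.1%, against 46.2% and 45.8%, and CGATA was in 56.9%, against 61.5% and 47.3%. All letters were matched on either strand and at any place in the promoter stretch. A match to such short letters is therefore not a placed TATA box or initiator. These shares were counted and not tested. MED8 and MED22 carried Motif 1 and had no thresholded peak, so the letters and the thresholded peak did not always go together.

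**Figure D2:**
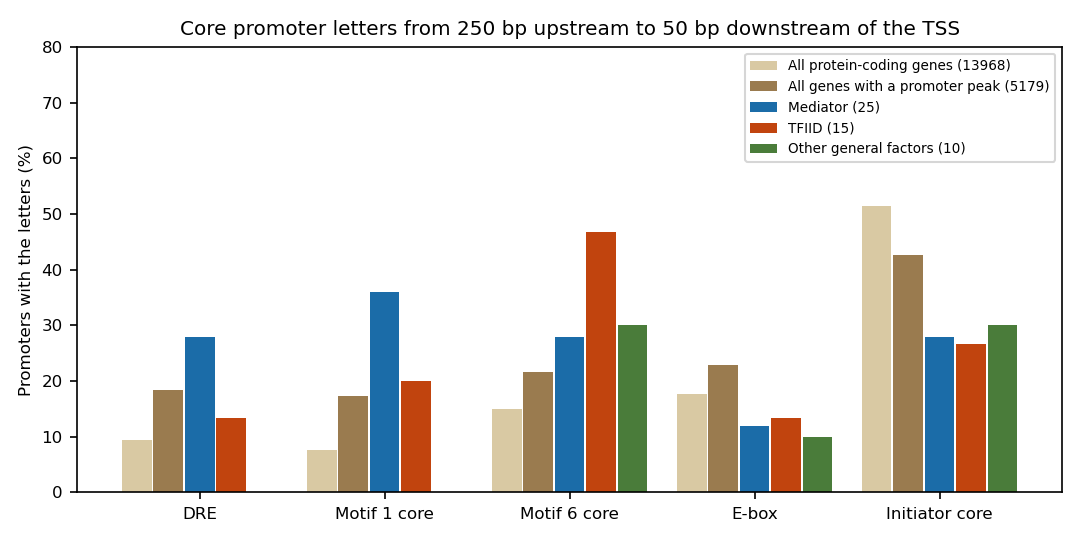
Share of promoters (%) with each motif between 250 bp upstream and 50 bp downstream of the most upstream TSS, for 5 motifs and for all genes, all genes with a promoter peak and the 3 classes. Motif 1 reaches 36.0% in Mediator and Motif 6 46.7% in TFIID, and the initiator core stands at 26.7% to 30% in the 3 classes against 51.5% of all genes.

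Among the Mediator genes the strongest peak was at MED10, a middle module subunit. Its summit lay 7 bp upstream of the start (chr3L:16231904-16232232), with a signal of 998 and rank 26 in the thresholded list. The signals in replicates 1, 2 and 3 were 400, 380 and 217, at ranks 12, 29 and 69. MED10 was thus among the 69 strongest regions of each list. The summit was within 500 bp of a start of PDCD-5 as well, which lies head to head with MED10.

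MED6 and MED7 followed. MED6, a head subunit, had a signal of 644 at rank 124, with the summit 2 bp downstream of a start (chr3R:9767700-9767957), and replicate signals of 299, 228 and 109 at ranks 49, 169 and 492. MED7, a middle subunit, had 612 at rank 146 with the summit 81 bp upstream (chr3R:10760935-10761256), and replicate signals of 236, 217 and 147 at ranks 161, 196 and 206. Replicate 3 placed both lower in its order than the other replicates did, and for MED7 the ranks were closest together. MED6 shared its summit with Naa80 and MED7 with Cap-H2.

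The remaining Mediator peaks covered a wide range. MED30 (563), MED4 (453), MED27 (428) and MED14 (399) stood above the upper quartile of all promoter peaks, 354. MED21 (374) did so as well. Of these, the MED30 summit lay 233 bp from MED30 and 41 bp from Rev1. That of MED27 lay 207 bp from MED27 and 71 bp from elm, and a further summit 8 bp upstream of MED27 had a signal of 231. MED14, the backbone subunit, had 180 in replicate 1 and 180 in replicate 2 and no promoter region in replicate 3. At the low end were MED18 (153), MED11 (160), MED25 (166) and MED28 (169), of which MED11 and MED18 also had no region in replicate 3. The tail genes, whose products meet activators, lay between 166 (MED25) and 343 (MED24), with MED15 at 194, MED16 at 266 and MED23 at 267.

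**Figure D3:**
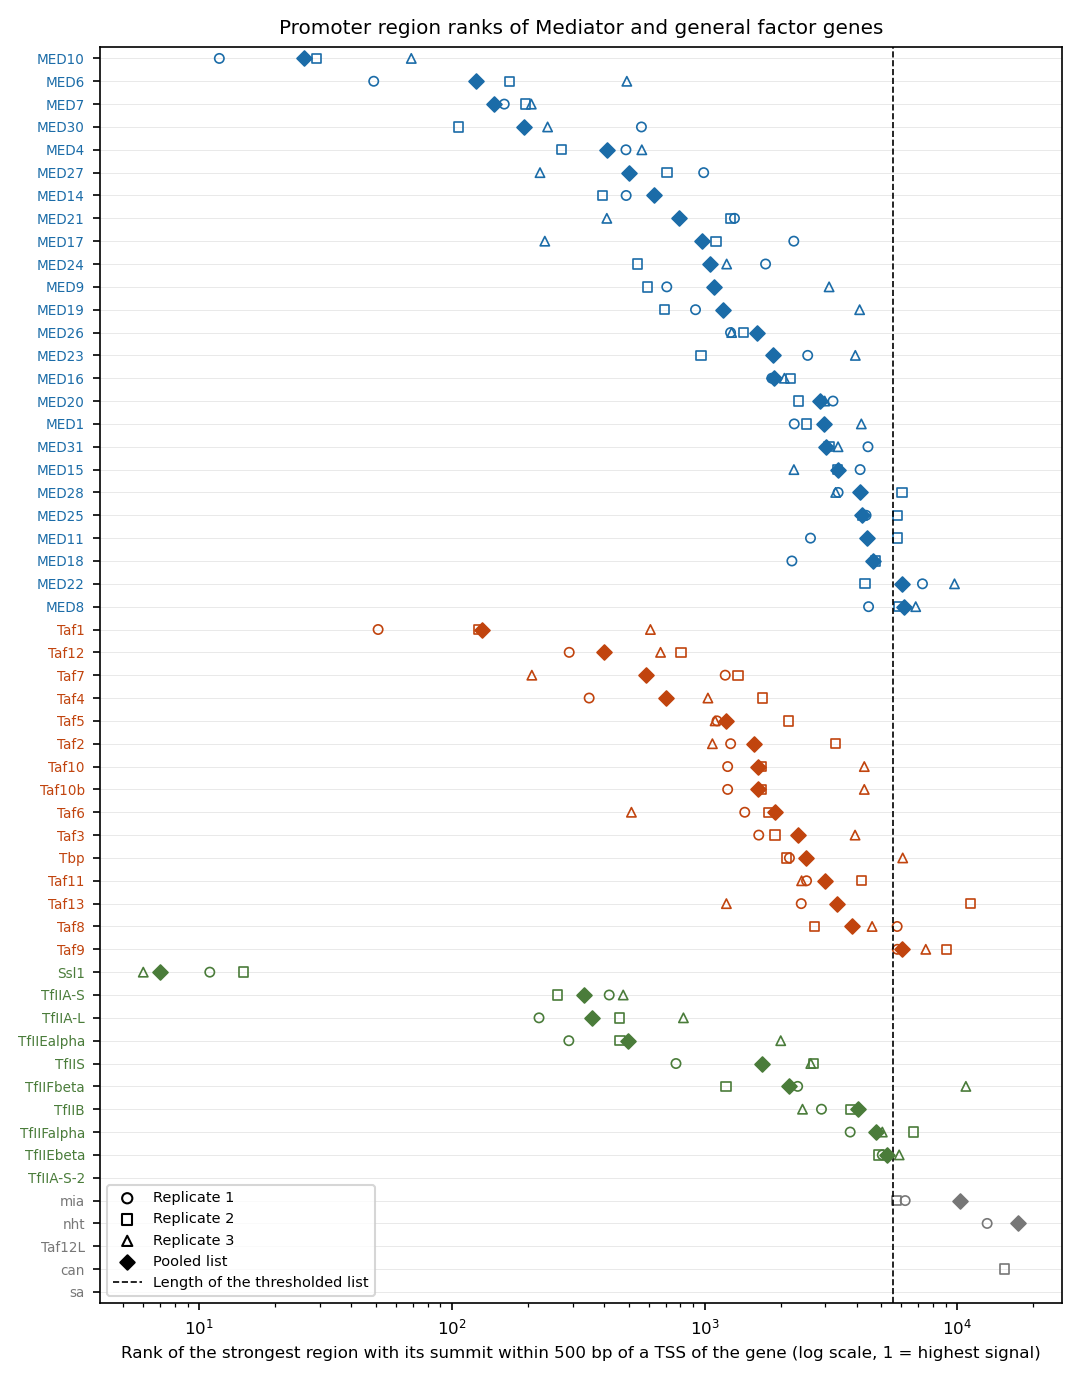
Rank of the strongest region with its summit within 500 bp of a TSS (log axis, 1 is the highest signal) for each gene, in the 3 replicates (open symbols) and the pooled list (filled), with a dashed line at the length of the thresholded list, 5558. Ssl1 and MED10 lie far left in each list, the pooled symbols of MED8, MED22 and Taf9 lie just right of the line, and the testis copies are right of it or without a symbol.

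In TFIID the strongest peak was at Taf1, the largest subunit and the scaffold of the complex. Its signal was 633 at rank 132, with the summit 74 bp downstream of the start, in the 5′ UTR (chr3R:6646748-6647152), and the replicates gave 293, 242 and 101 at ranks 51, 128 and 610. Replicate 3 placed it lower than the others. No other gene started within 500 bp of that summit, so the Taf1 peak was shared with no neighbour.

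Taf12, a histone-fold subunit that pairs with Taf4, had a signal of 458 at rank 401, with the summit 40 bp upstream (chr3R:11679622-11679837). Its replicate signals were 205, 144 and 97.6, at ranks 291, 806 and 669. Taf7, which binds Taf1, had 408 at rank 585 with the summit 100 bp upstream of a start (chr3R:7907494-7907630), and 135, 120 and 146 in the replicates at ranks 1206, 1356 and 207. Here replicate 3 gave the best of the 3 ranks, unlike Taf1 and Taf12, which ranked best in replicate 1. Ho lay nearest to the Taf12 summit and EMC1 shared that of Taf7.

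Tbp, the subunit that binds the TATA box, had an ordinary peak. Its signal was 231 at rank 2516, with the summit 26 bp downstream of the start in the 5′ UTR (chr2R:21687396-21687835), below the median of all promoter peaks, 253. The replicates gave 105, 98.5 and 28.8 at ranks 2165, 2110 and 6079, so it was among the 5558 strongest regions in replicates 1 and 2 and not in replicate 3. Of the other TFIID genes, Taf4 had 388, Taf5 322 and Taf2 290. Taf10 and Taf10b, close copies that start 45 bp apart on opposite strands, shared 1 summit with a signal of 284. Taf6 had 265, Taf3 239, Taf11 209, Taf13 196 and Taf8 179.

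Ssl1 had the strongest peak of all these genes. It encodes a core subunit of TFIIH, which opens DNA at promoters and at damaged sites. The signal was 1333 at rank 7 of the thresholded list (chr3L:22878698-22879143), and 405, 470 and 454 in the replicates, at ranks 11, 15 and 6. The ranks stood close together. The summit lay 192 bp upstream of the start of Ssl1 and inside the 5′ UTR of Chro, the gene of the chromatin protein Chromator, whose start was nearer, at 87 bp. The peak therefore counts for both genes.

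TFIIA came next through both of its subunit genes. TfIIA-S, the small subunit, had 478 at rank 334 with the summit 16 bp upstream (chr3R:23891001-23891205), and 187, 200 and 109 in the replicates at ranks 419, 261 and 476. TfIIA-L, the large subunit, had 469 at rank 358 with the summit 7 bp downstream of a start (chr3R:27253116-27253607), and 219, 171 and 90.5 at ranks 221, 459 and 824. The large subunit gene had the higher signal in replicate 1 and the small one in replicates 2 and 3. TfIIA-L shared its summit with pll, while TfIIA-S shared its own with no gene.

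The other general factor genes were lower. TfIIEalpha, the large TFIIE subunit, had 429, whereas TfIIEbeta, its partner, had the weakest peak inside the thresholded list, 136 at rank 5261 (59.4, 56.2 and 29.4 in the replicates, at ranks 5046, 4897 and 5886). TfIIFbeta had 250 and TfIIFalpha 149. TfIIS, which rescues arrested polymerase and is here by its name, had 280. TfIIB, which bridges Tbp and the polymerase, had 171 with the summit 370 bp upstream and nearer to Bug22, and a further summit of 136 lay 136 bp downstream of its start.

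**Figure D4:**
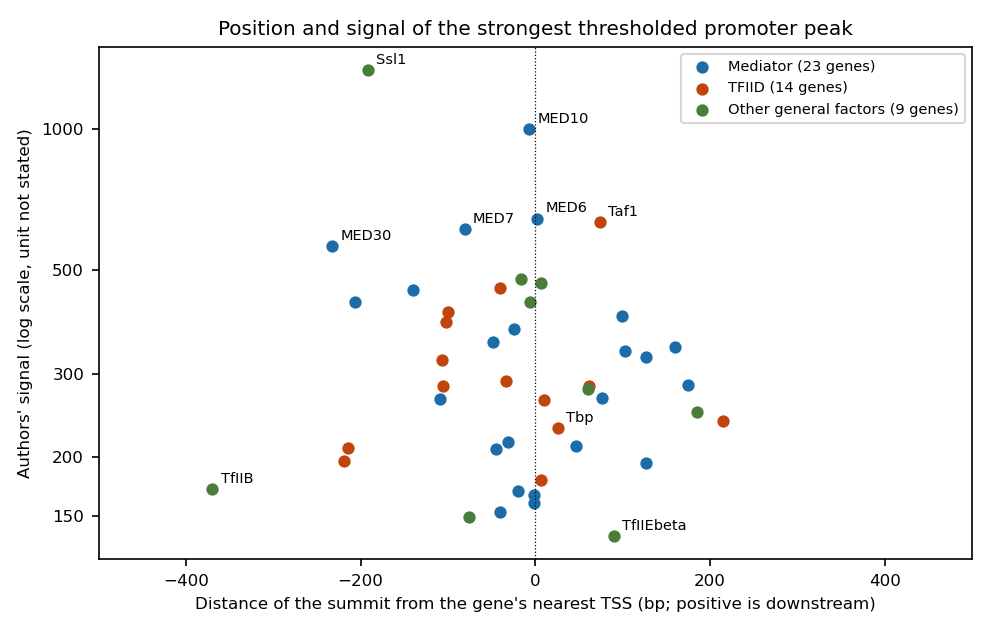
Signal of the strongest thresholded promoter peak (log axis) against the distance of its summit from the nearest start of the gene (bp, positive is downstream), 1 point per gene. All points but TfIIB lie within 250 bp of the start, and Ssl1 (1333) and MED10 (998) stand above the rest.

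Of the 5 genes without a thresholded peak, 3 were just past the end of that list. The weakest thresholded signal was 129. MED22 had a pooled signal of 119 at rank 6023, 13 bp upstream of the start. MED8 had 117 at rank 6139, 92 bp downstream, and Taf9 had 119 at rank 6016, 55 bp downstream. In the replicates MED22 had 41.2, 62.5 and 21.6 (ranks 7278, 4315 and 9745), MED8 had 66.5, 47.9 and 26.5 (ranks 4453, 5884 and 6844) and Taf9 had 52.1, 32.9 and 25 (ranks 5787, 9060 and 7501). Each of these genes was listed in all 3 replicates, at low signal. The nearest thresholded summits lay 653 bp upstream of MED22 and 621 bp upstream of MED8, and for Taf9 2667 bp downstream.

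TfIIA-S-2 and Taf12L had no promoter region in any list, including those with background regions. Their nearest thresholded summits were 19112 and 116762 bp away. Of the other testis copies, mia, the copy of Taf6, was in the pooled list with 69.0 at rank 10233 and in replicates 1 and 2 with 48.7 (rank 6217) and 48.9 (rank 5748). The copy of Taf4, nht, had 45.9 at rank 17421 in the pooled list and 22.1 at rank 13121 in replicate 1. The Taf5 copy can had only 23.7 at rank 15322 in replicate 2, 454 bp downstream of the start, and the Taf8 copy sa had no region. Their counterparts Taf6 (265), Taf4 (388), Taf5 (322), Taf8 (179) and Taf12 (458) all had thresholded peaks. Each counterpart had a start of another gene on the opposite strand within 1000 bp upstream, and none of the testis copies did. Over all genes the share with a thresholded peak was 66.4% with such a neighbour and 20.5% without one. The copies and their counterparts thus differ in this layout as well, and its part in the contrast was not tested.

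Signals of the 46 peaks ran from 136 to 1333, with a median of 285 and quartiles of 210 and 423, against a median of 253 and quartiles of 191 and 354 over all 5179 genes with a promoter peak. The members' peaks were spread over this range: 16 were above the upper quartile and 8 below the lower. Medians were 327 for Mediator, 284 for TFIID and 280 for the other factors. Over the members listed in both replicates of a pair, Spearman's rho of the signal was 0.846 for replicates 1 and 2 (49 genes), 0.716 for 1 and 3 (46 genes) and 0.647 for 2 and 3 (46 genes). Over genes with a thresholded promoter peak that both replicates listed, it was 0.716 (5141 genes), 0.515 (4873 genes) and 0.649 (4870 genes). The members were not held to the thresholded list, so these sets are not like for like. These are correlations across genes, which are not independent and sometimes share a summit.

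The summits sat close to the starts. The median distance was 76.0 bp, against 91.0 bp over all genes with a peak. Summits lay within 50 bp of the start in 19 of 46 genes (41.3%, against 32.1%) and within 250 bp in 45 (97.8%, against 85.8%). They were upstream in 27 genes and downstream in 19. By the annotation 21 summits were between genes, 13 in the gene's own 5′ UTR, 5 in its own coding exons, 3 in its own introns and 4 inside another gene. None of the 51 genes had a thresholded summit elsewhere in the gene, and 8 had 2 promoter summits: MED7, MED10, MED26, MED27, Taf5, Taf11, TfIIA-L and TfIIB. The side of the start, the annotated place and these last counts were not counted over all genes. They therefore do not show a trait particular to the members.

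Neighbouring genes bear on these counts. A start of another gene on the opposite strand lay within 1000 bp upstream of 37 of the 51 genes (72.5%), against 36.2% of all genes. With such a neighbour 34 of 37 had a thresholded peak, against 66.4% of all such genes. Without one 12 of 14 had a peak, against 20.5% of all such genes. In the strongest regions of replicates 1, 2 and 3 the counts were 34, 31 and 33 of 37 with a neighbour. Without one they were 12, 11 and 7 of 14. The shares over all genes were 37.7%, 36.4% and 33.7%. They were not split by neighbour, so the lower count in replicate 3 has no matching share beside it. The 12 without a neighbour and with a thresholded peak were MED4, MED11, MED14, MED21, MED24, MED26, Taf1, Tbp, TfIIA-S, TfIIEalpha, TfIIEbeta and TfIIFbeta, and the other 2 were Taf9 and Taf12L. Of the 46 peaks 27 were within 500 bp of another gene's start as well (58.7%, against 55.5%), and the gene's own start was the nearest in 35 (76.1%, against 73.5%). MED20 shared its summit with Trf, a relative of Tbp, so that 1 peak of signal 215 stood for a Mediator and a Tbp-related gene.

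Subunits of the same complexes that carry other names were listed too. All 4 genes of the Mediator kinase module, which docks on the complex and can block polymerase entry, had thresholded peaks: CycC at 421, kto at 232, skd at 172 and Cdk8 at 134. All 9 further TFIIH genes had them, from mrn at 150 to Tfb1 at 429, with the helicase genes hay at 238 and Xpd at 164. None of these came near the signal of Ssl1, whose summit lay nearer to the start of Chro than to its own. The share over all genes was 37.1%, as above.

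**Figure D5:**
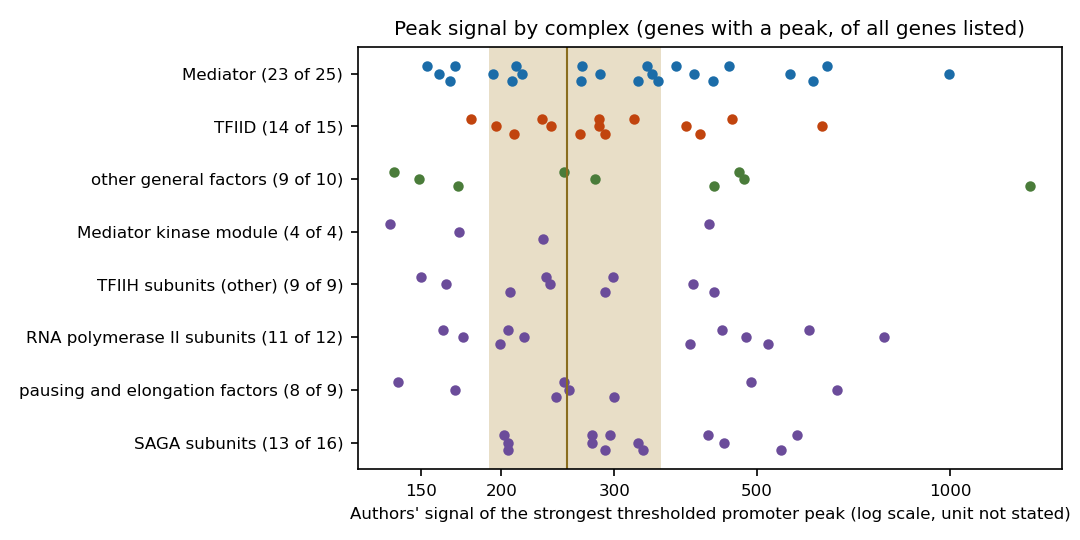
Signal of the strongest thresholded promoter peak (log axis) of each gene with a peak, by complex, with the number of genes that have one. The band spans the quartiles of all genes with a promoter peak (191 to 354) and the line their median (253).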

How the data were processed

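The deposited region lists hold a signal and a summit position for each region, and the signal is the authors' value, with no scale stated. Per the submitters' listing text, each replicate list holds peaks and background regions from 1 library and 1 control alignment, the pooled list uses all 3 libraries, and the thresholded list was derived from these by the irreproducible discovery rate procedure. The aligner, peak caller and cutoff were not given in the sources used here. All 5558 thresholded regions had the same interval and signal among the strongest 5558 of the pooled list. The dm3 versions were not used.

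Starts came from Ensembl release 115 on the chromosome arms, and sequence from RefSeq Release 6. A gene had a promoter peak when a summit lay within 500 bp of any own start, and its signal and rank are those of the strongest such region. Mediator modules were assigned from textbook knowledge, and rye was matched to Taf12L through RefSeq synonyms. Computations used Python 3.11.15, numpy 2.4.6 and scipy 1.17.1, with an exact sign-flip test, and were tested on simulated data. The labels give separate biosamples in 1 group, so n = 3 measures the spread between these.

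The members and lists were chosen with earlier results of these data known. All members are named by class. Values in every list are given for the 3 strongest members of each class, Tbp, Ssl1, the testis copies, the weakest member inside the thresholded list and the members outside it. MED14 and the Taf counterparts of the testis copies were given further values after these were seen.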

Additional observations from a re-analysis of the deposited data

How the results depend on the processing

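The count of 46 genes with a thresholded peak lay between 32 and 49 under other distances, lists and start rules over all 51 genes. The share over all protein-coding genes moved with it, from 37.1% to between 23.5% and 52.6%. Among genes without a divergent neighbour it was 12 of 14, with 6 of 6 Mediator, 2 of 3 TFIID and 4 of 4 other factor genes, a change that follows from fewer genes being counted. Over all genes without such a neighbour the share was 20.5%. With the 2779 strongest thresholded regions Mediator had 15 of 25 genes, against 23.5% of all genes. With peaks held by the strongest regions of all 3 replicates the other factors had 5 of 10, against 26.5%. In the pooled list 2 of 5 testis copies, mia and nht, had a summit, against 52.6%.

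Leaving out a replicate meant keeping thresholded peaks that the strongest regions of both others held. This gave 35 to 39 members, 18 to 20 Mediator genes, 11 to 12 TFIID genes, 6 to 8 other factors and 0 testis copies. The share over all genes was then 28.2% to 32.1%. The members' median signal of 285 became 322 to 327 with a replicate left out, 337 with all 3 replicates required, 363 with the 2779 strongest regions and 358 without a divergent neighbour. Each of these settings also moved the all-gene median from 253, to 284 for the first left-out replicate and to 294, 320 and 242 for the others. The mean count per replicate was 41.0 to 44.0 without 1 replicate.

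Alternatives for the difference between Mediator and TFIID were chosen after seeing the data. It was -10.7 points (exact p = 0.25) with the 2779 strongest regions of each replicate, 5.33 points (exact p = 0.25) within 1000 bp, and -4.67 to 3.33 without 1 replicate, and the cause was not tested. Of 86 recomputed values, 72 moved by no more than the limit set for them (1.5 times for a count, the SD for other values), and 14 moved by more. Counts and medians have no direction, and the difference between Mediator and TFIID started from 0, so a turn of direction could not be scored. No paired analysis was possible because there is 1 group. Depth is unknown, so its part in a missing region was not tested, and neighbouring genes that share a summit are counted separately.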

Other observations

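Other complexes of the same step of transcription were counted in the same way, as values beside the share of 37.1% over all genes. Of 12 RNA polymerase II subunit genes 11 had a thresholded promoter peak, all but Polr2I, with Polr2H at 789 and Polr2F at 603 highest and Polr2E at 162 lowest. Polr2A, the largest subunit, had 199. Of 9 pausing and elongation genes 8 had one, all but Spt6, with Nelf-A of the pausing complex NELF at 666. Of 16 genes for the SAGA coactivator 13 had one, with Atxn7 at 577 and Spt20 at 546. The 3 without were Ada1-1, Ada1-2 and not. The Tbp relative Trf2 had 178.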
